A study of Aspergillus niger with 8 samples.

Results

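The change of programme within carbon starvation was followed in Aspergillus niger N402, a filamentous fungus, by comparing mycelium kept for 24 h without a carbon source with mycelium kept for 6 h without one. The comparison takes 4 of the 8 libraries of the series, chosen by their labels: 24 h starvation A and B, and 6 h starvation A and B. Both groups share a history, in which spores germinated and grew for 48 h in minimal medium with 1% glucose and the mycelium was filtered, washed and moved to minimal medium lacking carbon. The other 4 libraries are mycelium moved for 6 h to wheat straw and the 48 h glucose culture it came from. They entered the gene filter, the scaling and the pooled spread of the test, and are otherwise used here for levels. A and B are duplicate flask cultures of one strain, and nothing states that a letter links cultures of different times, so p-values measure the spread between flasks.

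When a filamentous fungus runs out of carbon it grows on what its own compartments hold. Emptied hyphal cells undergo autolysis, in which secreted chitinases, glucanases and mannosidases take the wall apart, while remaining cells can form conidiophores and the asexual spores (conidia) they carry. BrlA is the transcription factor that starts conidiophore formation in Aspergillus. A. niger also secretes enzymes that release sugars from plant polysaccharides, and several of their genes are known to respond to the absence of glucose itself.

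RNA was sequenced after removal of ribosomal RNA, and reads were counted per gene. Reads on genes were 320375 and 205778 in the 24 h libraries against 471700 and 358403 in the 6 h libraries, which is 1.41 to 2.04% of all reads in these 4 files. Levels are given as RPKM on gene reads, reads per kilobase of gene scaled to the library's reads on genes in units of 1e+06, and as means ± SD of n = 2 cultures where a ± stands. The correlation of log2 scaled counts (CPM plus 1) over 10676 genes (a description, since they share libraries) was 0.839 between the 24 h cultures, 0.878 between the 6 h cultures and 0.790 to 0.820 across times. The mycelium was sequenced in bulk, so fewer cells of one kind cannot be told apart from less RNA per cell.

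After 24 h of starvation 250 genes were higher and 207 lower than after 6 h. Of 6357 genes tested with edgeR's quasi-likelihood test, a gene counted as called when its p, adjusted by Benjamini-Hochberg, was under 0.05 and the mean RPKM of the 2 times differed by 3-fold or more, so 3.93% of tested genes were called higher and 3.26% lower. The cultures of the 2 times did not overlap for 247 of the higher and 201 of the lower genes. The call itself favours genes whose cultures lie apart, so this count is not independent evidence. The same share over all tested genes was not computed. The higher genes had a median of 128 RPKM at 24 h and 12.4 RPKM at 6 h, and the lower genes 21.0 RPKM at 24 h and 148 RPKM at 6 h. Lower genes held 2.44 and 2.64% of reads on genes in the 24 h cultures against 16.4 and 17.8% in the 6 h cultures, and higher genes 10.6 and 10.3% against 1.23 and 1.06%. How many genes rose against how many fell depended on the scaling. TMM, which edgeR uses to set the bulk of genes level between libraries, gave a median log2 fold change of -0.08 over all tested genes, whereas scaling by reads on genes alone gave 0.24 and 338 higher against 172 lower genes. Leaving out 24 h starvation A left 155 higher and 123 lower genes, and leaving out 24 h starvation B left 161 higher genes. All log2 fold changes below are on the TMM scale. The 3-fold limit was set on RPKM, so a lower call needed a larger fitted fold than a higher one, and the adjusted p alone gave 250 higher and 265 lower genes.

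**Figure D1:**
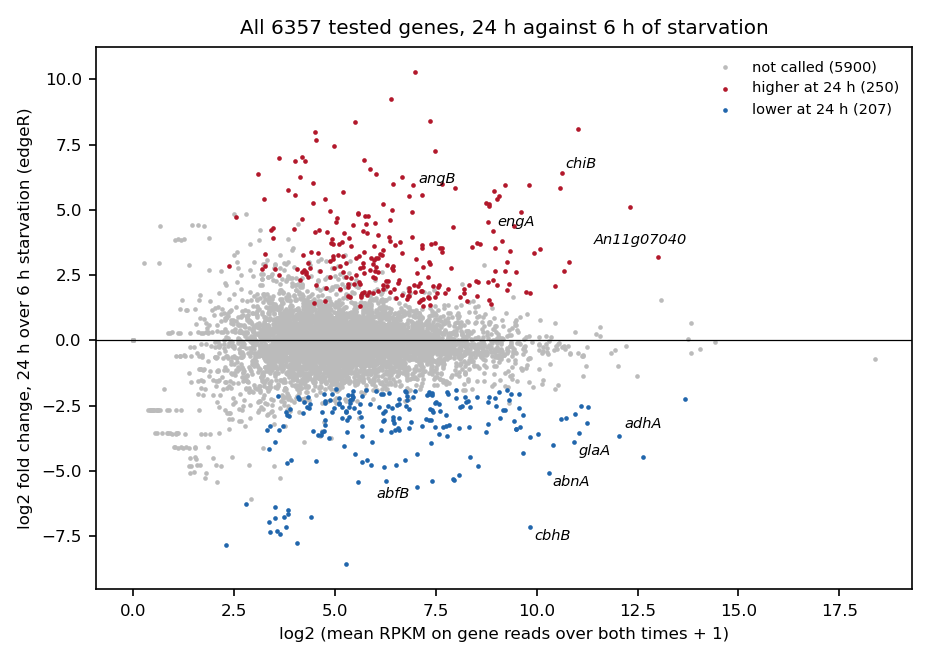
All 6357 tested genes by mean level (horizontal axis, log2 of mean RPKM on gene reads plus 1) and log2 fold change of 24 h over 6 h starvation (vertical axis, edgeR). Red points are the 250 genes called higher at 24 h, blue points the 207 called lower and grey points the rest, and chiB and cbhB stand near the upper and lower edges among well read genes.

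Chitin, the fibrous polymer of fungal walls, had 1 of its 6 listed genes called, where 7.19% of all tested genes were called either way. That gene, chiB, was among the most strongly raised of the transcriptome. chiB encodes a group A chitinase with chitobiosidase activity that in A. niger is associated with autolysis. It stood at 2634 and 3599 RPKM in the 24 h cultures, against 31.0 and 27.9 RPKM in the 6 h cultures. Both late cultures lay far above both early ones, a 106-fold ratio of means and a log2 fold change of 6.40 with SE 0.49 (edgeR's quasi-likelihood test, adjusted p = 6.05e-07). The 6 h values of chiB lay near the 24.3 ± 4.31 RPKM on straw and the 34.6 ± 2.71 RPKM of glucose-grown mycelium. The group A chitinase gene cfcD had 333 ± 106 RPKM at 24 h and 171 ± 22.3 RPKM at 6 h (adjusted p = 0.390). On glucose cfcD had 9.13 ± 0.03 RPKM. The chitin synthase gene chsG, with 24.1 ± 5.14 RPKM at 24 h and 6.41 ± 3.54 RPKM at 6 h, did not pass (adjusted p = 0.224). Summed over the 6 listed genes, the level was 3454 and 4060 RPKM at 24 h against 432 and 275 RPKM at 6 h, most of it chiB. The study drew up this and the other carbohydrate-active lists from genes that moved in these samples, so a list's direction is not independent evidence.

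A further gene of N-acetylglucosamine use was also higher at 24 h. An16g09040, with a predicted N-acetylglucosamine-6-phosphate deacetylase domain, an activity on the route from chitin sugar to central metabolism, had 181 and 213 RPKM at 24 h, against 0 and 4.38 RPKM at 6 h. It rested on 74 and 56 reads at 24 h and on 0 and 2 reads at 6 h, a ratio of 103 with a 95% interval of 27.8 to 856 that covers counting error only (adjusted p = 8.33e-05, edgeR's quasi-likelihood test). Near it on the chromosome, and singled out after their values were seen, An16g09020 had 1810 ± 433 RPKM at 24 h and 141 ± 73.6 RPKM at 6 h, and An16g09070 957 ± 138 RPKM at 24 h and 14.9 ± 11.3 RPKM at 6 h. Neither carries a description in the sources used.

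Hydrolases of β-glucan, the main polysaccharide of the hyphal wall, rose at 24 h for 3 of 6 tested genes, against 3.93% of all tested genes. None fell, and the median log2 fold change of the list was 2.85 against -0.08 over all tested genes. The endo-β-1,3-glucanase gene engA had 1007 and 832 RPKM at 24 h against 53.0 and 26.9 RPKM at 6 h, a log2 fold change of 4.19 (SE 0.47, adjusted p = 1.38e-05). An01g04560, annotated as a β-glucanase of family GH16, had 1031 and 1328 RPKM at 24 h against 25.2 and 3.01 RPKM at 6 h (log2 fold change 5.94, SE 0.62, adjusted p = 7.57e-06). Late and early cultures did not overlap for either gene, and both early levels were within a few-fold of those on glucose (12.8 ± 4.56 RPKM for engA and 4.82 ± 2.79 RPKM for An01g04560). bgxB, a putative β-1,3-glucanase gene, had 132 and 119 RPKM at 24 h, against 11.1 and 0 RPKM at 6 h (adjusted p = 0.000377). The exo-β-1,3-glucanase gene exgA had 1674 and 489 RPKM at 24 h against 359 and 180 RPKM at 6 h. It missed the threshold (adjusted p = 0.0561, from 0.00401 to 0.758 over its alternatives). The call was made with DESeq2, RLE factors, reads on genes alone, no low-count filter or the replicate block, and without 6 h starvation A or 24 h starvation B. Without 24 h starvation A the log2 fold change of exgA was 0.51 in place of 1.68. bxgA, an exo-glucanase gene, had 562 ± 130 RPKM at 24 h and 244 ± 111 RPKM at 6 h and was not called.

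α-1,3-Glucan, a wall layer that masks the inner polymers in several aspergilli, had 2 listed endo-glucanase genes raised. The synthase gene on the list, agsD, was not called, and the list does not claim to hold every synthase gene. angB had 367 and 620 RPKM at 24 h against 5.30 and 8.72 RPKM at 6 h, a log2 fold change of 5.83 with SE 0.56 (adjusted p = 4.69e-06). agnE had 46.3 and 55.7 RPKM at 24 h, against 0 and 1.88 RPKM at 6 h, where it had a single read; the ratio of pooled reads was 61.5 with a 95% interval of 10.4 to 2492. The call on agnE was lost without 6 h starvation A, where its log2 fold change was 4.35 in place of 5.40. The α-1,3-glucan synthase gene agsD had 114 and 89.4 RPKM at 24 h and 43.0 and 17.2 RPKM at 6 h, apart but short of the threshold (adjusted p = 0.0636, from 0.00717 to 0.416 over its alternatives).

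Among genes for the mannan coat, 1 of 9 tested passed, where 7.19% of all tested genes were called either way. An14g04240, a putative α-mannosidase gene of family GH92, had 151 and 187 RPKM at 24 h, against 3.62 and 0 RPKM at 6 h, a log2 fold change of 5.99 (SE 0.64, adjusted p = 8.12e-06). An07g07700, a putative α-1,6-mannanase gene, was high at both times, with 1045 and 911 RPKM at 24 h and 489 and 438 RPKM at 6 h (log2 fold change 0.76, adjusted p = 0.275). Its cultures did not overlap, and at 42.4 ± 5.80 RPKM it was lower on glucose than at either time. The median of the mannan list was 0.76, and the fitted values of its members ran between -1.39 and 5.99.

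Transferases that elongate or branch β-1,3-glucan had 1 of 7 members called, against 7.19% of all tested genes called either way. bgtD, of family GH17, had 28.6 and 31.2 RPKM at 24 h, where it had 10 and 7 reads, and no read in either 6 h culture, which makes it at least 9.02-fold higher when 3 counts are set over both 6 h libraries. Its call was lost when either 6 h library was left out, and it could not be tested without either 24 h library. gelA, a β-1,3-glucanosyltransferase gene, had 157 ± 38.8 RPKM at 24 h and 138 ± 3.61 RPKM at 6 h, and bgtC, a relative of bgtD, 211 ± 92.9 RPKM at 24 h and 163 ± 33.4 RPKM at 6 h; neither passed. gelE, which was at 404 ± 150 RPKM on straw, had 5.96 ± 0.16 RPKM at 24 h and 20.4 ± 6.70 RPKM at 6 h (adjusted p = 0.0673).

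The 5 genes of the conidiation and pigment list pointed one way but were thinly read. Of these 2 were called higher, against 3.93% of all tested genes. None was lower, and the lowest fitted log2 fold change was 1.53. The description of urhgB, 1 of the 2 called genes, names no role in conidiation. brnA, a multicopper oxidase gene whose product takes part in making the dark spore pigment of A. niger, had 27 and 11 reads at 24 h and none at 6 h, at least 19.1-fold higher with 3 counts over both 6 h libraries (adjusted p = 0.00110, edgeR's quasi-likelihood test). brlA had 85.5 and 34.2 RPKM at 24 h against 13.3 and 2.18 RPKM at 6 h. The cultures did not overlap, yet its log2 fold change of 2.55 (SE 0.79) missed the threshold at an adjusted p of 0.0541, which ran from 0.0125 to 0.606 over its alternatives. Without 24 h starvation A the value was 1.70. The endo-chitinase gene ctcB, placed with conidiation by the study, behaved alike, with 90.9 and 45.6 RPKM at 24 h against 15.9 and 7.86 RPKM at 6 h (adjusted p = 0.0523), and it is also 1 of the 6 chitin genes. mcoB, a laccase-like gene, had 90.7 ± 44.4 RPKM at 24 h and 24.5 ± 3.83 RPKM at 6 h (adjusted p = 0.0747), and urhgB, a distant relative of rhamnogalacturonyl hydrolases, 17 and 7 reads at 24 h against 1 and 0 reads at 6 h. The call on urhgB was lost without 24 h starvation A, without either 6 h library, and in DESeq2. The conidiophore regulators abaA and wetA were not analysed here. Summed over the 5 genes the level was 329 and 262 RPKM at 24 h against 58.1 and 31.9 RPKM at 6 h. Genes commonly read in growing hyphae were not called: the glyceraldehyde-3-phosphate dehydrogenase gene gpdA had 375 ± 38.1 RPKM at 24 h and 421 ± 297 RPKM at 6 h, and the actin gene actA 283 ± 35.6 RPKM at 24 h and 388 ± 117 RPKM at 6 h. The described set covers only the first genes in genome order, and 19 tested genes there have a description that mentions conidia or spores. None was higher and 1 was lower, with a list median of 0.17 and values from -2.15 to 2.82 on the log2 scale. The lower gene, An01g04830 for a Myb-like DNA-binding protein, had 18.7 ± 1.40 RPKM at 24 h and 66.0 ± 23.1 RPKM at 6 h. Its call was lost in 7 alternatives, among them the fits without 6 h starvation A, 24 h starvation A and 24 h starvation B. In the same list 2 genes were called higher with RLE factors, reads on genes alone, no low-count filter or the replicate block, and without 6 h starvation A.

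**Figure D2:**
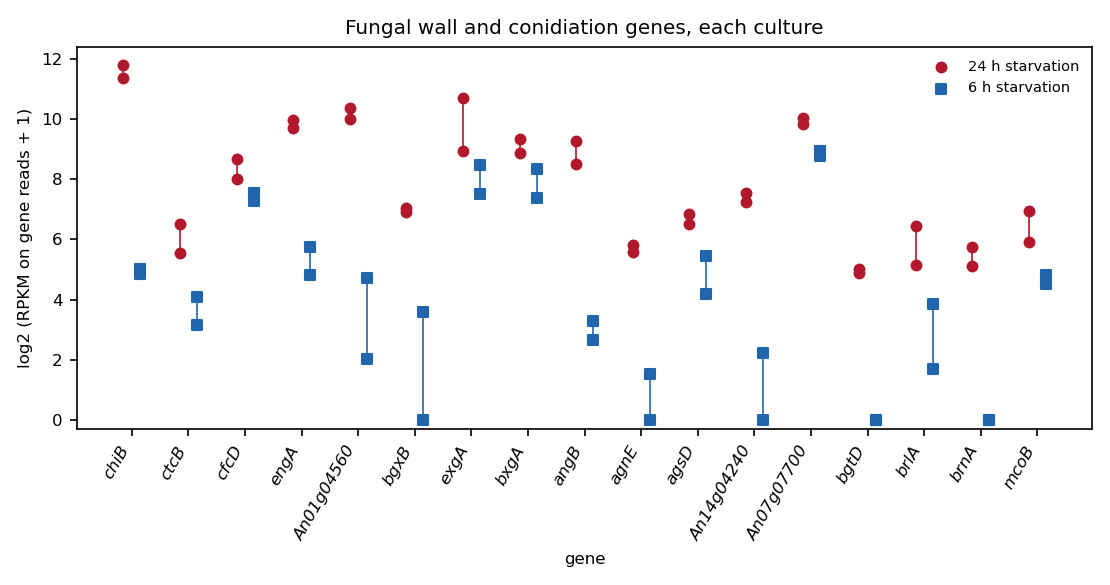
Levels of 17 fungal wall and conidiation genes in each culture, as log2 of RPKM on gene reads plus 1, with 24 h starvation (red circles) left of 6 h starvation (blue squares) and a line joining cultures A and B. chiB, An01g04560, angB and An14g04240 sit far apart between times, while cfcD and An07g07700 sit closer.

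Genes for the side chains of pectin, arabinan and galactan, had the lowest median of the carbohydrate-active lists, -3.44 on the log2 scale. In this list 6 of 11 tested were lower at 24 h and none higher, against 3.26% of all tested genes called lower. The endo-arabinanase gene abnA had 49.9 and 129 RPKM at 24 h against 2111 and 2724 RPKM at 6 h, a log2 fold change of -5.09 with SE 0.54 (adjusted p = 8.12e-06). abnA was at 0 and 0.73 RPKM on glucose and at 376 ± 65.1 RPKM on straw. The arabinofuranosidase gene abfB, whose product takes single arabinose units off arabinan and arabinoxylan, had 3.03 and 10.6 RPKM at 24 h against 275 and 229 RPKM at 6 h (log2 fold change -5.62, SE 0.59). Both late cultures were down to a few RPKM, close to the 1.82 ± 1.21 RPKM on glucose. The β-galactosidase gene lacA had 10.9 and 54.0 RPKM at 24 h against 619 and 798 RPKM at 6 h, lacB 8.13 ± 4.27 RPKM at 24 h and 171 ± 49.8 RPKM at 6 h, and lacC 6.31 ± 2.86 RPKM at 24 h and 141 ± 36.5 RPKM at 6 h. The 3 log2 fold changes were -4.81, -4.77 and -4.84, with adjusted p of 4.83e-05, 4.44e-05 and 8.12e-06, and no cultures overlapped. galA, an endo-galactanase gene, had 14.8 and 23.1 RPKM at 24 h against 232 and 84.8 RPKM at 6 h (adjusted p = 0.00126).

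Not all genes for these side chains fell. abnC, a second endo-arabinanase gene by annotation, had 1280 and 1259 RPKM at 24 h and 1352 and 882 RPKM at 6 h (log2 fold change -0.14, SE 0.39, adjusted p = 0.903). Per length, abnC was above abnA in both 24 h cultures and below it in both 6 h cultures. abfC, another arabinofuranosidase gene, had 74.8 ± 17.7 RPKM at 24 h and 163 ± 34.8 RPKM at 6 h, with an adjusted p of 0.0370 but a ratio below 3, so it was not called. No test of abnA against abnC was made.

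Of genes acting on the pectin backbone, 3 of 11 tested were lower, against 3.26% of all tested genes. None was higher, and 12 of the 23 listed were too thinly read to test. The exo-polygalacturonase gene pgxB had 7.09 and 0 RPKM at 24 h against 132 and 165 RPKM at 6 h. It kept 3 reads at 24 h, which puts the 6 h level 33.8 times higher with a 95% interval of 11.4 to 166 (adjusted p = 5.98e-05). An14g01130, annotated as a rhamnogalacturonan hydrolase, had 11.8 and 18.4 RPKM at 24 h against 452 and 489 RPKM at 6 h (log2 fold change -5.30, SE 0.55, adjusted p = 7.57e-06). An14g01130 had 21.0 and 9.01 RPKM on straw, where abfB and lacA were higher than at 6 h of starvation. pgaX, a further exo-polygalacturonase gene, had 4.77 and 14.9 RPKM at 24 h against 89.1 and 128 RPKM at 6 h (log2 fold change -3.88, SE 0.59). rgaeA, for a rhamnogalacturonan acetyl esterase, was not called at 4 and 3 reads at 24 h and 37 and 9 reads at 6 h.

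Cellulose genes were lower for 5 of 14 tested, against 3.26% of all tested genes. None was higher, and the median was -2.08 on the log2 scale. cbhB, a cellobiohydrolase gene, had 22.7 and 7.86 RPKM at 24 h, against 2935 and 690 RPKM at 6 h. The 6 h cultures differed several-fold from each other, and still both lay far above both 24 h cultures (log2 fold change -7.14, SE 0.94, adjusted p = 7.61e-05). At 24 h its level of 15.3 ± 10.5 RPKM was near the 9.88 ± 4.92 RPKM on glucose. The β-glucosidase gene An03g03740 had 60.2 and 63.6 RPKM at 24 h against 400 and 254 RPKM at 6 h (adjusted p = 0.000312). An11g00200, a putative β-glucosidase gene at 11075 ± 295 RPKM on straw, had 121 ± 57.1 RPKM at 24 h and 488 ± 296 RPKM at 6 h, and its call was lost without 6 h starvation A (log2 fold change -1.52) and without 24 h starvation A. An04g03170, a putative β-glucosidase gene, had 13 and 10 reads at 6 h and none at 24 h, at least 4.86-fold lower at 24 h with 3 counts over both 24 h libraries; without 24 h starvation A it was not called. An endoglucanase gene next to cbhB in the numbering, An01g11670, had 14.0 ± 2.16 RPKM at 24 h and 83.7 ± 36.7 RPKM at 6 h, a call lost without 6 h starvation A, 24 h starvation A or 24 h starvation B. bgl1, the best read β-glucosidase gene here, had 901 and 525 RPKM at 24 h against 2243 and 1899 RPKM at 6 h; its adjusted p was 0.0163 and its ratio fell short of 3.

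Of 11 tested xylan genes and 7 tested xyloglucan genes none was called, with medians of -0.98 and -1.81. Among them were aceA, an acetyl xylan esterase gene with 5 and 0 reads at 24 h and 25 and 9 reads at 6 h (adjusted p = 0.0714), and the α-fucosidase gene An16g02760, with 27.7 ± 6.17 RPKM at 24 h and 79.3 ± 23.7 RPKM at 6 h (adjusted p = 0.00901, ratio below 3). Several of the xyloglucan genes were thinly read. An16g00540, a putative α-fucosidase gene, had no read at 24 h and 1 read in each 6 h culture, and without it the xyloglucan median was -1.46. An01g03340, an endo-β-1,4-glucanase gene, had 1 read at 24 h and 7 at 6 h. The β-xylosidase gene xlnD had 4.07 ± 0.745 RPKM at 24 h and 7.19 ± 3.45 RPKM at 6 h, against 728 ± 289 RPKM on straw. xlnR, which encodes the transcriptional activator of the xylanase and cellulase genes, had 74.6 ± 14.8 RPKM at 24 h and 133 ± 5.38 RPKM at 6 h (adjusted p = 0.0828), above the 9.56 ± 4.21 RPKM on glucose at either time. For galactomannan 1 of 2 tested genes was lower, the α-galactosidase gene aglC, with 33.4 and 15.2 RPKM at 24 h against 201 and 417 RPKM at 6 h (log2 fold change -3.92, SE 0.52, adjusted p = 8.33e-05). The α-galactosidase gene aglA went the other way, with 208 and 629 RPKM at 24 h against 32.4 and 68.1 RPKM at 6 h (log2 fold change 2.76, SE 0.51, adjusted p = 0.00143). Another of the kind, aglB, had 41.2 ± 27.6 RPKM at 24 h and 53.0 ± 14.6 RPKM at 6 h and was not called.

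Genes for starch and inulin split. glaA, encoding the glucoamylase that frees glucose from starch, had 202 and 399 RPKM at 24 h against 3565 and 3620 RPKM at 6 h, a log2 fold change of -3.89 (SE 0.57, adjusted p = 0.000209). At 6 h glaA ranked 3 among the most read genes, at 1.71 and 1.74% of reads on genes, and at 24 h it held 0.0971 and 0.191%. Its level on glucose was higher than at either time of starvation, 9001 ± 1334 RPKM. amyR, the activator of the amylolytic genes, had 16.2 and 2.80 RPKM at 24 h against 63.5 and 38.6 RPKM at 6 h (adjusted p = 0.0102), a call lost without 6 h starvation A or 24 h starvation B. agdB, a putative α-glucosidase gene, stayed high, with 5749 and 2037 RPKM at 24 h and 2840 and 1546 RPKM at 6 h, overlapping ranges. inuE, the exo-inulinase gene, had 2 reads in the 24 h cultures together and 39 and 31 reads at 6 h, 22.2 times higher at 6 h with a 95% interval of 5.92 to 187. The trehalose synthesis genes tpsB and tppC were not called, and tpsB had 347 ± 22.2 RPKM at 24 h and 196 ± 32.3 RPKM at 6 h. An03g01050, a putative endo-β-1,6-galactanase gene, belongs with the strongest falls at 7.56 and 23.5 RPKM at 24 h against 443 and 509 RPKM at 6 h (log2 fold change -5.34, SE 0.54, adjusted p = 6.32e-06).

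**Figure D3:**
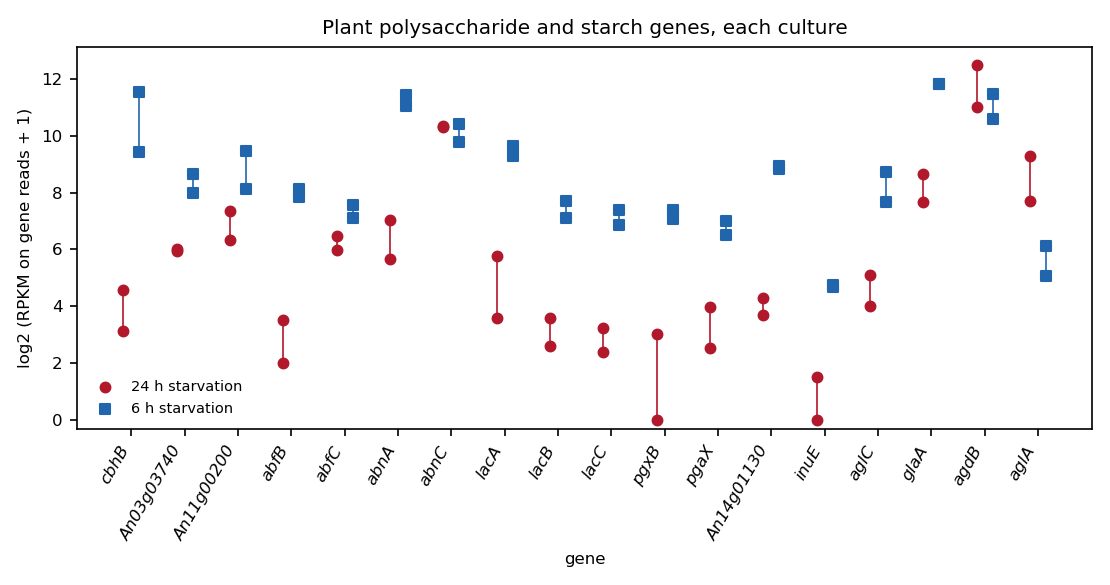
Levels of 18 genes for plant polysaccharides and starch in each culture, as log2 of RPKM on gene reads plus 1, with 24 h starvation (red circles) left of 6 h starvation (blue squares). Most sit lower at 24 h, abnC and agdB overlap between times, and aglA sits higher at 24 h.

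Over the 137 genes of the study's carbohydrate-active tables, 109 were tested, 11 were higher and 18 lower, and the median log2 fold change was -0.55. Of all tested genes 3.93% were higher and 3.26% lower. A mixed list of other carbohydrate-active genes held 3 higher and 2 lower genes. Among the remaining lists of these tables the 2 directions fell apart. No plant polysaccharide list held a higher gene, and no chitin, glucan, mannan or conidiation list held a lower one. The α-galactosidase gene aglA, called higher, is not on the galactomannan list. The lists were drawn from genes that moved in these samples, so this split is not independent evidence.

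**Figure D4:**
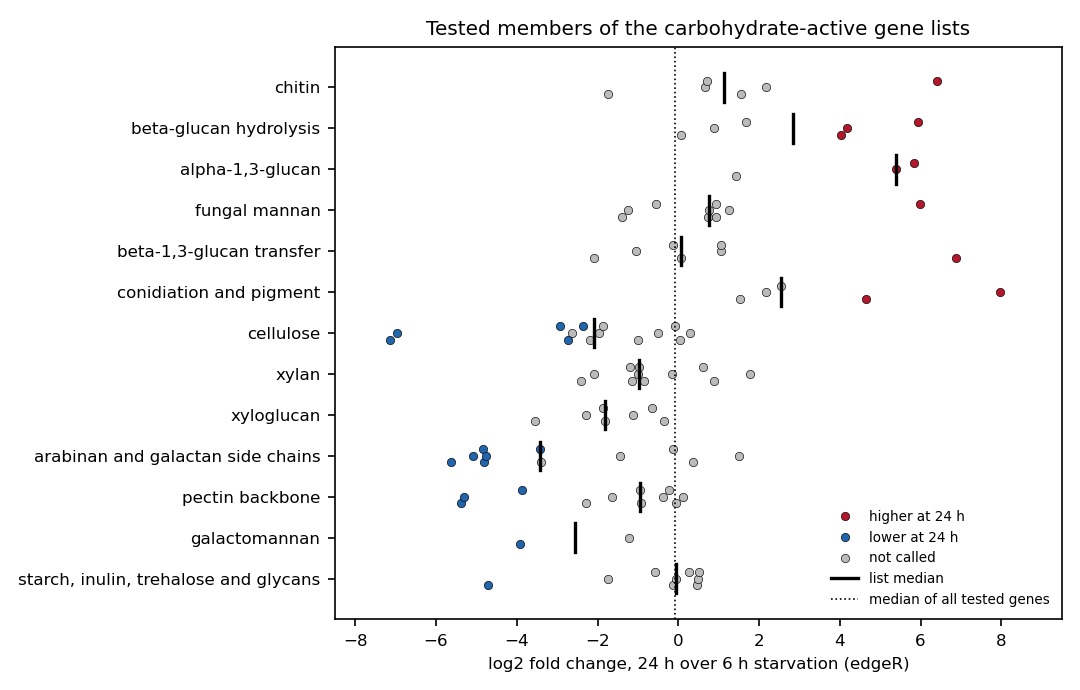
Log2 fold change of 24 h over 6 h starvation (edgeR) for each tested member of 13 carbohydrate-active gene lists, with genes higher at 24 h in red, lower in blue and not called in grey. Black bars are list medians, and the dotted line is the median of all 6357 tested genes, -0.08.

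Outside polysaccharides, genes for fat and acetate use were lower or not called at 24 h. The counts below stand against 3.26% of all tested genes called lower and 3.93% called higher. Of 11 genes that the study lists under fatty acid catabolism from the straw libraries, 3 were lower and none higher (median -1.72 on the log2 scale), and of 10 it lists under fatty acid metabolism from the 6 h starvation libraries, 3 were lower. The lists share members, and An14g00920 and An14g00990 are among the lower genes of both. Thinning to the smallest library lost the call on An14g00920. The other lower gene of the second list, An11g07310, is also listed under secondary metabolism. Its cultures overlapped between times, and it returns below in a run of neighbouring genes. The second list was picked for being high at 6 h, so its fall is tied to that choice. An14g00990 of the catabolic list had 147 and 166 RPKM at 24 h against 346 and 809 RPKM at 6 h, a call lost without 6 h starvation B. An01g09270, a putative isocitrate lyase gene, the first step of the glyoxylate bypass that lets cells build sugar from acetyl units, had 782 and 394 RPKM at 24 h against 2466 and 4300 RPKM at 6 h (log2 fold change -2.83, SE 0.56, adjusted p = 0.00261). Its level on straw was 3554 ± 2162 RPKM and on glucose 386 ± 146 RPKM, so at 24 h it stood near glucose. facB, the activator of acetate genes, had 114 ± 11.8 RPKM at 24 h and 107 ± 44.6 RPKM at 6 h. Of 7 acetate genes 1 was lower, An15g01860, which is also a lower gene of the catabolic list and lost its call without either 24 h library, and its list's median was -1.59. The alcohol dehydrogenase gene adhA had 1276 and 236 RPKM at 24 h, over 5-fold apart, against 9611 and 5585 RPKM at 6 h (adjusted p = 0.00118). None of 6 glycolytic genes and neither of 2 genes of the tricarboxylic acid cycle was called, with medians of -0.75 and -0.77. Of 4 genes for breakdown of branched-chain amino acids none was called, and their fitted values lay between -0.10 and 0.27.

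The longest run of neighbouring genes that changed together comprised 8 genes, An01g06820 to An01g06890, all lower at 24 h. Runs were sought along the RefSeq gene order as at least 4 genes called one way with at most 1 other gene between neighbours, and 3 runs were found, a rule set after the values were seen and given without a test. In the first, descriptions name a 3-dehydrosphinganine reductase (An01g06830), a putative acid-CoA ligase (An01g06840), an oxidoreductase with a metal site (An01g06850), a dioxygenase like those of austinol synthesis (An01g06860) and a pyridoxal phosphate enzyme (An01g06870), and 2 putative polyketide synthases follow a few genes further on, which were not tested. An01g06850 had 850 and 327 RPKM at 24 h against 4537 and 4030 RPKM at 6 h, and An01g06860 574 and 243 RPKM at 24 h against 3735 and 3972 RPKM at 6 h. Log2 fold changes in the run ran from -3.09 (An01g06820) to -3.69 (An01g06870). In these 8 genes culture A was above culture B at 24 h, and both 24 h cultures were below both 6 h cultures. On straw the highest mean of the run was 6.33 RPKM (An01g06880) and on glucose its means were 176 (An01g06830) to 2042 RPKM (An01g06860), so 24 h starvation lay between straw and glucose. The call held under each alternative run for 7 of them, and that on An01g06880 was lost in DESeq2. The transporter gene An01g06920, 3 genes past the end of the run, had a log2 fold change of -0.30 (adjusted p = 0.752).

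The second run, An11g07310 to An11g07340, was also lower at 24 h and almost unread on straw and glucose. An11g07320 had 281 and 112 RPKM at 24 h against 2618 and 1179 RPKM at 6 h (log2 fold change -3.57, SE 0.55, adjusted p = 0.000336), with 1.16 ± 1.64 RPKM on straw and no read on glucose. An11g07340 had 187 and 233 RPKM at 24 h against 701 and 871 RPKM at 6 h. An11g07310, the first of the run, overlapped between times, with 137 and 64.5 RPKM at 24 h and 796 and 135 RPKM at 6 h. Its call was lost without 6 h starvation A, where its log2 fold change was -0.69, and without 24 h starvation B. The study lists 3 of these genes under secondary metabolism, by a list drawn from the 6 h starvation libraries. In that list 5 of 12 tested were lower and none higher, against 3.26% of all tested genes called lower. The list was picked for being high at 6 h, so its fall is tied to that choice, and 3 of its 5 lower genes belong to this run. One more member of that list, An13g02430, had 20 and 22 reads at 6 h and none at 24 h, at least 9.10-fold lower at 24 h with 3 counts over both 24 h libraries.

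The third run, An11g07030 to An11g07060, was higher at 24 h. An11g07040 had 15257 and 14888 RPKM at 24 h against 1312 and 1330 RPKM at 6 h, the highest 24 h level of the 250 raised genes (log2 fold change 3.20, SE 0.48, adjusted p = 0.000279). It took 0.912 and 0.890% of reads on genes at 24 h, with no read on straw and 2.63 ± 3.72 RPKM on glucose. An11g07050 had 946 and 793 RPKM at 24 h against 168 and 150 RPKM at 6 h and no read in the other 4 libraries. An11g07030, at 477 ± 71.4 RPKM at 24 h and 136 ± 26.2 RPKM at 6 h, lost its call in each fit that left a library out, and An11g07060, with 38 and 7 reads at 24 h and 3 and 1 reads at 6 h, without 6 h starvation B. Both 4-gene runs carry An11g identifiers, and none of their genes is described in the sources used.

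**Figure D5:**
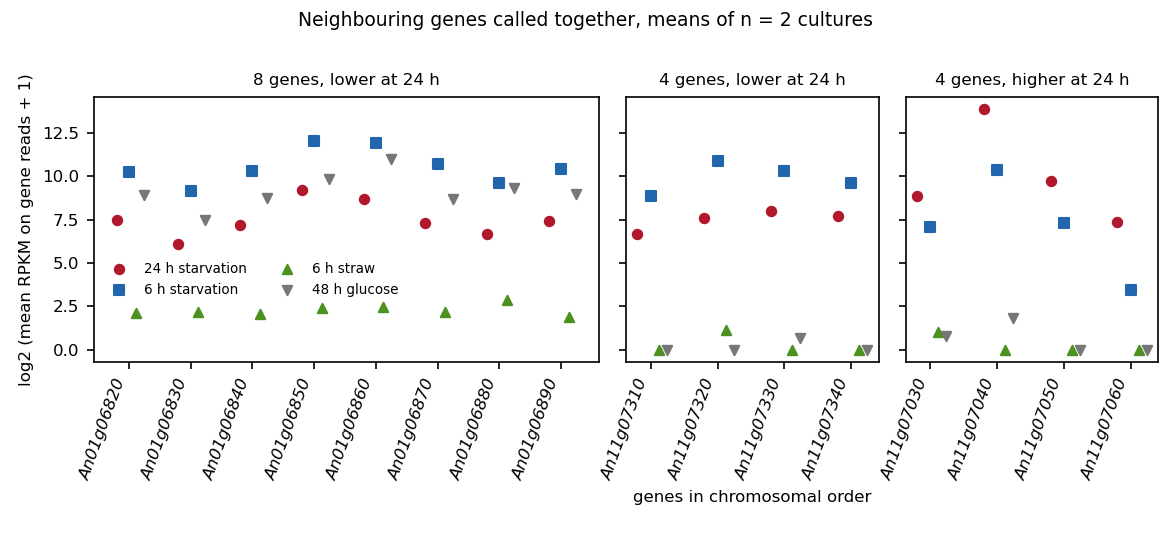
Mean level (log2 of mean RPKM on gene reads plus 1, n = 2 cultures) of the genes in the 3 runs, in chromosomal order. 24 h starvation (red circles) lies below 6 h starvation (blue squares) in the 8-gene and the first 4-gene run and above it in the second 4-gene run, and straw (green) and glucose (grey) are at or near 0 in both 4-gene runs.

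Lists were also made by keyword from a set of 1999 genes, the first in genome order from An01g00010 onward. They do not cover the rest of the genome. In all, 1635 genes carried a description from this set or from the study's lists. Apart from the conidia and spore list above, the keyword lists held calls in both directions or none. Of all tested genes, 7.19% were called either way. Of 49 tested transporters 2 were higher and 4 lower, of 35 transcription factors 1 was higher and 2 lower, of 37 P450 and other oxidoreductases 4 were higher and 5 lower, and of 18 peptidases 1 was higher and 1 lower. The raised peptidase gene, An01g00370, described as a secreted protease of the pepsin family, had 531 and 923 RPKM at 24 h against 56.5 and 32.4 RPKM at 6 h (log2 fold change 3.69, SE 0.47, adjusted p = 5.15e-05). On glucose it stood at 419 ± 115 RPKM, so 6 h of starvation was the low point. Its description also calls it detected only under starvation, which the level on glucose does not bear out. The vacuolar protease gene pepE had 571 ± 55.4 RPKM at 24 h and 1019 ± 75.7 RPKM at 6 h, and the acid protease gene pepA 108 ± 65.4 RPKM at 24 h and 52.0 ± 6.78 RPKM at 6 h, both short of the threshold. The raised regulator gene, An01g14540, with predicted zinc ion and DNA binding by description, had 60.1 and 78.0 RPKM at 24 h against 4.08 and 1.79 RPKM at 6 h (adjusted p = 0.00292). An01g07140, another predicted regulator gene, had 4.08 and 6.35 RPKM at 24 h, 51.7 and 40.1 RPKM at 6 h and 599 ± 192 RPKM on glucose (adjusted p = 0.000519). None of 11 ribosomal protein genes, 8 genes of ribosome biogenesis, 5 tRNA ligase genes, 6 respiratory genes or 4 autophagy genes was called, and the medians ran from -0.66 for respiration to -0.01 for tRNA ligases.

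The genes used by the study as references for quantitative PCR did not pass. Besides actA, sarA had 57.4 and 22.3 RPKM at 24 h and 68.2 and 42.7 RPKM at 6 h (log2 fold change -0.73), and An08g05910 had 73.7 ± 19.3 RPKM at 24 h and 51.7 ± 1.57 RPKM at 6 h (log2 fold change 0.22). sarA rested on 12 and 3 reads at 24 h.

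Much of the most abundant RNA was of genes that were not called. Of the 10 most read genes at each time 6 were the same. At 24 h the named ones among the 10 were agdB and the sorbitol dehydrogenase gene An01g03480, which had 3483 and 4017 RPKM at 24 h and 7432 and 7957 RPKM at 6 h (adjusted p = 0.0732). An01g01830, a putative catalase-peroxidase gene, had 1629 and 1327 RPKM at 24 h and 1664 and 1055 RPKM at 6 h, and An02g00590 1750 and 3182 RPKM at 24 h and 1881 and 2887 RPKM at 6 h, neither called. On glucose they had 36.9 ± 7.28 RPKM (An01g01830) and 19.5 ± 10.6 RPKM (An02g00590). At 6 h the 10 also held glaA, adhA and the undescribed An16g01880, which had 222 and 1127 RPKM at 24 h against 8174 and 16012 RPKM at 6 h (log2 fold change -4.47, adjusted p = 0.000252).

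Set among the 4 conditions of the series, 232 of the 250 higher genes, 92.8%, had their highest mean RPKM at 24 h, against 33.6% of all tested genes, and 15 had it on glucose. Of the 207 lower genes, 98 (47.3%) were highest at 6 h of starvation, 57 (27.5%) on glucose and 52 (25.1%) on straw, against 13.9%, 31.0% and 21.5% of all tested genes. The choice of these genes by this comparison sets part of that split. A gene called lower cannot be highest at 24 h, and one called higher cannot be highest at 6 h of starvation. The shares of all tested genes include the 33.6% that were highest at 24 h. The shares of the lower genes are thus not on a like base, and no excess on straw or glucose is read from them. glaA and An01g07140 are lower genes highest on glucose, lacA and abfB lower genes highest on straw, and abnA, pgxB and An14g01130 lower genes highest at 6 h of starvation.

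Among called genes, cultures A and B were more often far apart at 24 h than at 6 h of starvation. The 24 h libraries also held fewer reads on genes, and the same count over all tested genes was not made. Of the 457 called genes, 19 of 288 with at least 20 reads in a 24 h culture were over 5-fold apart between the 24 h cultures, and 5 of 254 between the 6 h cultures. An05g01730 had 20 reads in 24 h culture A and 527 in B, against 0 and 3 at 6 h, and its call was lost without 24 h starvation B. An07g06470, singled out after its values were seen, had 0 reads in 24 h culture A and 592 in B, against 1 and 15 at 6 h, so its call rested on B, and without 24 h starvation B its fitted log2 fold change was -6.63 in place of 5.82. By size of change, among genes called with at least 20 reads on average, the top 10 each way held 3 described higher genes and 7 described lower genes, chiB, An14g04240 and An16g09040, and cbhB, abfB, pgxB, An03g01050, An14g01130, abnA and lacC.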

How the data were processed

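Raw counts of reads per gene were deposited by the authors for 8 libraries: rRNA-depleted RNA was sequenced on a SOLiD instrument, mapped with LifeScope, and forward reads with a mapping quality of at least 20 were counted with Htseq-count on gene models of strain ATCC 1015. Deposited RPKM divides those counts by all reads of a library, since dividing out both gave whole gene lengths (tolerance 0.01 base) for 100% of 73160 values. It was used only to recover lengths and as an alternative. Of 15436 rows, 5 summary rows, 96.6 to 98.6% of reads, were removed, leaving 15431 genes, and levels were recomputed per reads on genes. The authors' comparisons were not used.

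The test was run in R 4.3.3 using edgeR 4.0.16. All 8 libraries entered filterByExpr by condition and took TMM factors (0.896 to 1.157). The common dispersion was 0.0889, with residual df of 4, and genes were tested by the quasi-likelihood contrast of 24 h minus 6 h with Benjamini-Hochberg adjustment over 6357 genes. Alternatives were DESeq2 1.42.0, RLE factors, reads on genes alone, no low-count filter, a replicate block, the 4 starvation libraries alone, 2 other fold measures, the adjusted p alone, thinning to 205778 reads, and each starvation library left out. An unread group was set to 3 counts over the group, and 95% intervals of pooled ratios are exact and cover counting error only.

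Members and lists were chosen with earlier results of these data known. Named were the 10 largest called changes each way (mean of at least 20 reads, no overlap), up to 5 called members of each list each way, genes the study names, the most read described genes, and unchanged members of lists of 7 or fewer. Of 146 symbols searched, 114 matched no row. Gene order came from RefSeq (ASM285v2), with 14055 of 14058 identifiers in the files. The result of 1 gene is not reported here.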

Additional observations from a re-analysis of the deposited data

How the results depend on the processing

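Across the alternatives run, higher genes numbered 189 to 338 and lower genes 147 to 250 with every library in the fit or the 4 starvation libraries alone, each within 1.5 times the reported 250 and 207, or 265 lower genes on the adjusted p alone. With a library left out, higher genes ranged from 155 to 178 and lower genes from 123 to 216, and called genes of the carbohydrate-active tables from 25 to 34. With the replicate letter as a block, 264 genes were higher and 216 lower. Same-lettered cultures deviated together by r = 0.194 between the starvation times and by -0.07 to 0.28 between other conditions, so letters were not taken as pairs; the block lost the call of none of the 93 called genes named here. Scaling by reads on genes alone shifted the median log2 fold change of all tested genes to 0.24 and moved the share of calls that were higher from 54.7 to 66.3%. Of those 93 genes 60 kept their call under each alternative that could test them. DESeq2 lost 11, thinning to the smallest library 9, the 4 starvation libraries alone 7, and leaving out a library between 10 and 20. One gene reversed: An07g06470, which ran from -6.63 without 24 h starvation replicate B to 8.88 without 6 h starvation replicate B. Depth was 205778 to 471700 reads on genes with 2 cultures a time, and 9074 of 15431 genes were not tested.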
